A study of Homo sapiens with 4 samples.

Results

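The numbered zinc finger genes of chromosome 19 are the protein-coding genes with a symbol of ZNF and a number that GENCODE places on that chromosome. The count table held 238 of them among 48162 genes, 83 on the short arm, 56 on the proximal long arm and 99 on the distal long arm. The other 2 genes that meet the definition, ZNF229 and ZNF8, were not analysed here. RNA was sequenced in 4 libraries of NCI-H1703, a cell line from a human lung cancer. Overexpression A and B came from cells with stable overexpression of EGFR-AS1, a long noncoding RNA, and vector A and B from cells transfected with the vector alone. All 4 were grown in RPMI with 10% fetal bovine serum under hygromycin at 100 µg/ml, and the labels give passages 20 to 30 for vector A and 20 to 31 for the others. Neither the promoter that drives EGFR-AS1 nor whether each kind of cell was 1 clone or a pool is given in these sources.

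C2H2 zinc finger proteins bind DNA through repeated fingers held in shape by zinc, and the order of the fingers sets the sequence that is bound. Most of those on chromosome 19 also carry a KRAB box, which recruits the co-repressor TRIM28 and through it the histone methyltransferase SETDB1, and many silence transposable elements. The genes arose largely by tandem duplication, lie in dense clusters and resemble their neighbours. In the GENCODE coding sequences a script found a KRAB box in 203 of the 238 genes and 0 to 36 fingers per protein (median 12). Runs of genes with at most 10 other coding genes between neighbours were called clusters, named by their first and last gene. There were 10 with at least 5 genes, and 12 genes were scattered.

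The libraries held 41518275 reads (vector A), 32601449 (vector B), 32680467 (overexpression A) and 33750041 (overexpression B), of which the 238 genes took 0.257%, 0.224%, 0.243% and 0.259%. EGFR-AS1 was at 1.39 and 1.17 CPM (reads scaled to a common library size with TMM factors) in vector and at 20.2 and 17.4 CPM with overexpression, so the labels and the targeted gene go together. Nothing in the labels says that libraries within a group were separate cultures. The p-values below reflect the spread between these libraries alone, which may be technical.

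Of the 238 genes, 208 had enough reads to be tested. The other 30 had at most 38 reads over the 4 libraries together, and 10 of them had none, among them ZNF208, ZNF257, ZNF676, ZNF728 and ZNF729 of the cluster from ZNF101 to ZNF254. The tested genes had a median of 8.14 CPM in vector, beside 17.9 CPM over all 16106 genes tested. Per kilobase of exon the median level in vector was 1.49 CPM, and the highest was 34.3 CPM per kilobase for ZNF146, whose protein is made of fingers with almost no other sequence.

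With EGFR-AS1 overexpressed, 9 of the 208 tested genes rose and 1 fell (edgeR quasi-likelihood test, Benjamini-Hochberg adjusted p under 0.05 over all genes). All 9 that rose, led by ZNF528, ZNF813, ZNF665 and ZNF677, lay in a single cluster of the distal long arm, the one from ZNF175 to ZNF331. The gene that fell, ZNF787, was the first of the next large cluster of that arm. Over all 16106 genes 14.5% were called, 7.80% higher and 6.67% lower, beside 4.81% of the tested zinc finger genes. DESeq2 called 7 of 210, 6 higher and 1 lower (12.1% over all genes), and limma-voom 10 of 208, 8 higher and 2 lower (14.4% over all genes). The number of rises depended on single libraries. Without vector A 27 zinc finger genes rose and 3 fell, where 21.2% of all genes were called. Without vector B 5 rose and 4 fell (17.9% over all genes), without overexpression A 4 rose and 1 fell (7.81%), and without overexpression B 1 rose and 1 fell (7.59%).

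At an unadjusted p under 0.05, 21 of the 208 were higher and 8 lower, beside 14.5% and 12.3% over all genes. The median log2 fold change of the 208 tested genes (overexpression over vector) was 0.08, with 128 above 0, beside 0.00 over all genes tested. It was -0.03 over 768 other coding genes of chromosome 19, of which 111 were called (14.5%, as over all genes). Over 203 numbered ZNF genes of other chromosomes it was -0.10, and of these 8 rose and 24 fell (15.8% called). The groups did not overlap, in the higher direction, for 68 of the 208 genes, where the share over all genes was 28.3%. In the lower direction they did not overlap for 31 of them, where the share over all genes was 27.2%. Libraries of the same group differed for these genes. Vector A was above vector B for 155 of the 208 (74.5%, beside 51.3% over all genes). Overexpression B was above overexpression A for 147 (70.7%, beside 49.5% over all genes). The median GC content of the 208 was 42.1%. Among 1245 other coding genes with a GC content of 40.1% to 42.4% these shares were 36.5% and 83.7%. The second difference was thus not particular to the zinc finger genes. Summed over all 238 genes, the level was 2515 and 2323 CPM in vector and 2398 and 2598 CPM with overexpression, and the groups overlapped. The ratio of the means was 1.03 (exact permutation test, two-sided, p = 0.667).

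The plot of fold changes in gene order shows where along the chromosome the calls lie.

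**Figure D1:**
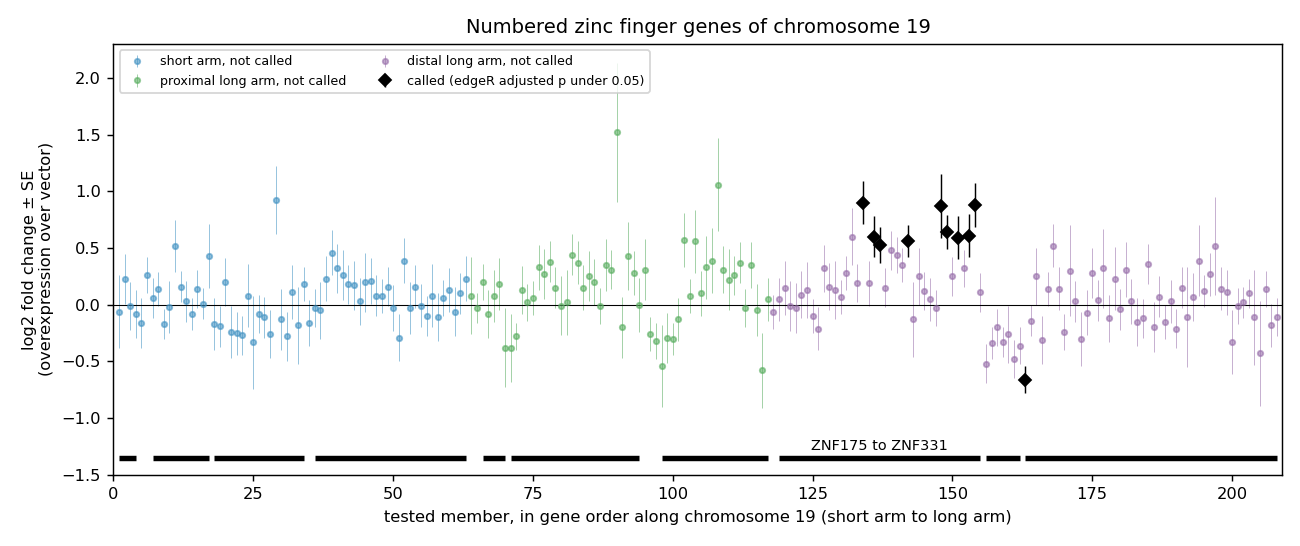
Log2 fold change (overexpression over vector, with its standard error) of the 208 tested zinc finger genes in gene order along chromosome 19, coloured by arm segment. Black diamonds are the 10 genes called, black bars at the bottom are the 10 clusters, and all 9 called rises stand over the cluster from ZNF175 to ZNF331.

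The cluster from ZNF175 to ZNF331 holds 39 genes, all with a KRAB box in the GENCODE coding sequence, and 37 were tested. In it 9 genes rose and none fell, which is 24.3% of those tested beside 7.80% over all genes, while 1 of the 171 tested zinc finger genes outside it was called. Its median log2 fold change was 0.19, and 31 of the 37 values were above 0. Libraries did not overlap for 20 of the 37 in the higher direction (54.1%, beside 28.3% over all genes). In the lower direction they did not overlap for 1, ZNF432 (2.70%, beside 27.2% over all genes). Summed over the 39 genes the level was 477 CPM in vector A, 406 in vector B, 526 in overexpression A and 591 in overexpression B. Both overexpression libraries were above both vector libraries. The ratio of the means was 1.26, and the exact two-sided permutation p was 0.33, the smallest that 2 against 2 libraries can give.

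ZNF528 (ENSG00000167555) showed the largest change of the 10 called genes on the log2 scale. It had 776 reads in vector A, 386 in vector B, 816 in overexpression A and 1100 in overexpression B, which is 18.3, 12.2, 24.6 and 32.7 CPM. The vector libraries were the lower pair and did not overlap with the overexpression libraries, although each pair was itself well spread. The rise was 1.87-fold (log2 fold change 0.90, SE 0.19, edgeR adjusted p = 0.00445). It passed in all 13 refits tried, with log2 fold changes between 0.65 (without vector B) and 1.22 (without vector A). Its protein has 15 fingers.

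ZNF813 (ENSG00000198346), with 13 fingers, was at 6.23 and 6.47 CPM in vector and at 10.8 and 12.6 CPM with overexpression. The vector libraries lay close together and well below the others. It rose 1.84-fold (log2 fold change 0.88, SE 0.19, edgeR adjusted p = 0.00421), and passed in 12 of 13 refits, the exception being the fit without overexpression B (adjusted p = 0.0828). ZNF677 (ENSG00000197928), which has been reported as silenced by promoter methylation in lung cancer, was at 25.3 and 20.8 CPM in vector and at 32.5 and 39.2 CPM with overexpression. Here too the groups did not overlap. It rose 1.55-fold (log2 fold change 0.64, SE 0.15, edgeR adjusted p = 0.00972) and also missed the threshold only without overexpression B (adjusted p = 0.178).

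ZNF665, with 18 fingers, was the lowest of the called genes and rested on few reads, 75 and 44 in vector and 95 and 99 with overexpression. At 1.77, 1.40, 2.87 and 2.94 CPM the groups did not overlap. It rose 1.82-fold (log2 fold change 0.87, SE 0.28, edgeR adjusted p = 0.0470) but passed in only 4 of 13 refits, and DESeq2 gave an adjusted p of 0.154. ZNF761 was at 9.06 and 7.01 CPM in vector and at 11.2 and 13.5 CPM with overexpression (log2 fold change 0.61, SE 0.19, edgeR adjusted p = 0.0434), and passed in 6 of 13 refits. It was past the threshold without vector A (adjusted p = 9.20e-04) and not past it without vector B (0.0905), overexpression A (0.0650) or overexpression B (0.425).

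The other 4 genes that rose had log2 fold changes of 0.53 to 0.60. ZNF701 was at 9.15 and 7.93 CPM in vector and at 12.1 and 13.9 CPM with overexpression (edgeR adjusted p = 0.0340), ZNF525 at 9.13 and 7.39 against 11.4 and 13.6 CPM (0.0468), and ZNF83 at 29.7 and 21.8 against 36.8 and 37.7 CPM (0.0309). None of these groups overlapped, and the lowest library was vector B each time. They passed in 9, 6 and 7 of 13 refits and, without overexpression B, none of the 3 did (adjusted p = 0.360, 0.447 and 0.139). ZNF320, the highest gene of the cluster per kilobase of exon, was at 43.5 and 34.0 CPM in vector and at 54.4 and 59.8 CPM with overexpression (log2 fold change 0.56, SE 0.14, edgeR adjusted p = 0.0129). It passed in 10 of 13 refits, but not against a fold change of 1.2 (adjusted p = 0.0727), without vector B (0.0506) or without overexpression B (0.124). Its value is uncertain because 73.8% of its exonic bases lie under exons of other genes, ZNF468 among them, and 99.5% of the 100-base stretches of its longest transcript also occur in a transcript of another gene. ZNF701 shares 18.6% of its exonic bases in the same way, and the other called genes under 5%.

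**Figure D2:**
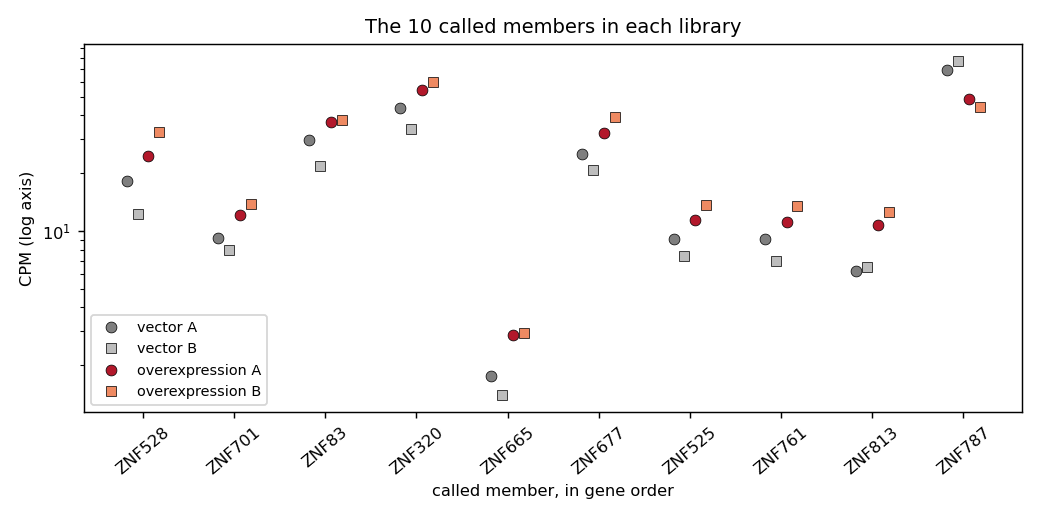
CPM (log axis) of the 10 called genes in each of the 4 libraries, in gene order. For the first 9 genes both overexpression libraries (red and orange) lie above both vector libraries (grey), and for ZNF787 they lie below, at 48.6 and 44.1 CPM against 69.0 and 77.0 CPM.

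Within the cluster the called genes were not spread evenly. None of the 15 genes from ZNF175 to ZNF880 was called by edgeR (1 at an unadjusted p under 0.05, ZNF610, in the higher direction; 0 by DESeq2 and 0 by limma-voom), and their median log2 fold change was 0.13. Of the 22 tested genes from ZNF528 to ZNF331, 9 were called, and the median was 0.39. This division was made after the values were seen and so carries no test. The running median over 7 neighbouring tested genes was -0.01 around ZNF350 and ZNF615, 0.53 around ZNF528 and ZNF808, 0.12 around ZNF160 and ZNF415, and 0.61 around ZNF525. Genes that did not pass stood between those that did. ZNF611 was at 15.0, 12.2, 14.8 and 15.4 CPM in vector A, vector B, overexpression A and overexpression B (log2 fold change 0.15, edgeR adjusted p = 0.619), ZNF347 had a log2 fold change of -0.03 and ZNF415 one of 0.05. ZNF331, the imprinted gene at the end of the cluster, had a log2 fold change of 0.11 (edgeR adjusted p = 0.721), with vector A at 26.4 CPM above both overexpression libraries.

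The spread between libraries of a group ran through the cluster. Overexpression B was above vector B in 34 of 37 tested genes and above vector A in 32, whereas overexpression A was above vector B in 29 and above vector A in 22. The median level relative to each gene's mean over the libraries was -0.03, -0.25, 0.04 and 0.19 on the log2 scale in vector A, vector B, overexpression A and overexpression B. The lowest library was thus vector B and the highest overexpression B, and between vector A and overexpression A the median moved little. The median log2 fold change of the cluster was 0.36 without vector A, 0.12 without vector B, 0.33 without overexpression A and 0.16 without overexpression B.

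**Figure D3:**
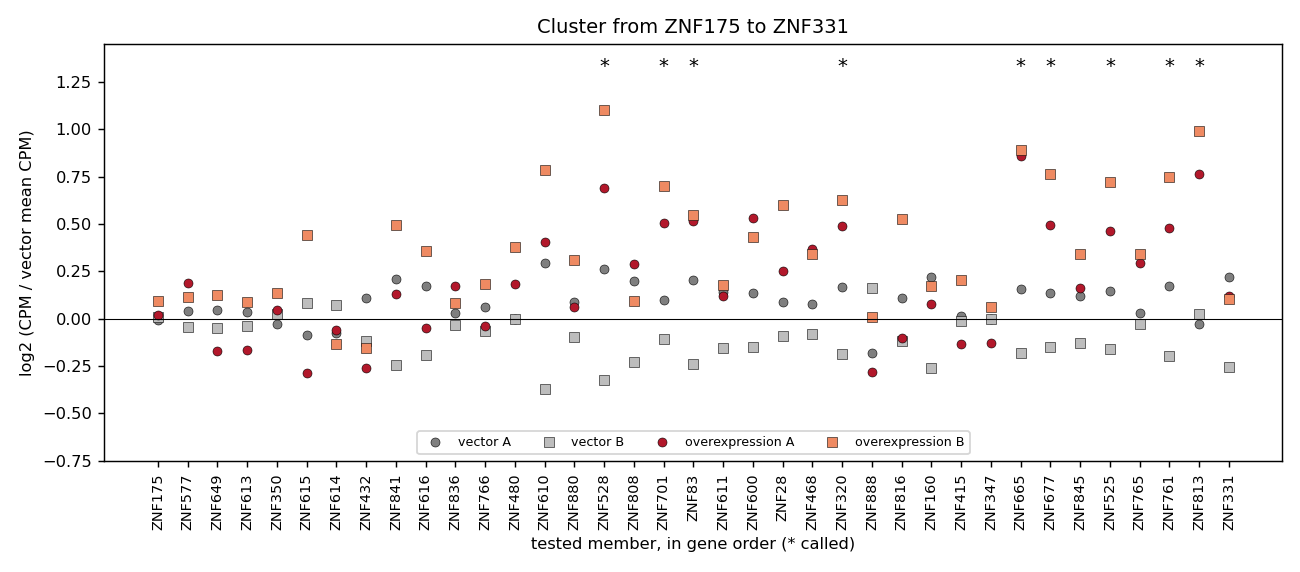
The 37 tested genes of the cluster from ZNF175 to ZNF331 in gene order, with each library's CPM on the log2 scale relative to the mean of the vector libraries, and asterisks over the 9 called genes. Vector B (light grey squares) is mostly lowest and overexpression B (orange squares) mostly highest, and all called genes lie from ZNF528 onward.

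Other kinds of genes in and around the cluster gave a mixed picture. Of 15 other coding genes between ZNF175 and ZNF331, among them the SIGLEC and FPR receptor genes, only SPACA6 and PPP2R1A had enough reads to be tested. SPACA6, a gene of sperm function, had a log2 fold change of 0.41 (edgeR adjusted p = 0.291) and PPP2R1A, the scaffold subunit of protein phosphatase 2A, one of -0.14 (0.476). Of the 10 tested coding genes before the cluster, 1 was called (10.0%), C19orf48, and it fell. Of the 10 after it, CACNG7 and VSTM1 rose and OSCAR fell (30.0% called). The share called over all genes was 14.5%.

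Promoter sequences are shown for the called genes whose call held in at least 12 of 13 refits, because these are the members that the comparison turns on. They come from RefSeq on GRCh38.p14 and run from 250 bases before to 50 bases after a listed start, 5′ to 3′ on the gene's strand. ZNF528 (chr19:52397599-52397898, plus strand) and ZNF813 (chr19:53467483-53467782, plus strand) have 1 listed start, ZNF677 (chr19:53254774-53255073, minus strand) has 2, of which the first is given, and ZNF787 (chr19:56121246-56121545, minus strand) has 1. Capitals mark CCGGAAG, the core of many ETS factor motifs, or its reverse complement CTTCCGG.
ZNF528: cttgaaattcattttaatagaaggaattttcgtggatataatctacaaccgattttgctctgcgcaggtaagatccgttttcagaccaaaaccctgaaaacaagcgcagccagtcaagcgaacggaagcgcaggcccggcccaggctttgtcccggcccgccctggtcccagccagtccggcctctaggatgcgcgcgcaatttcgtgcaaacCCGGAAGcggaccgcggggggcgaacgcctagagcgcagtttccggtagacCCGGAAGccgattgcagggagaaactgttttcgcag
ZNF677: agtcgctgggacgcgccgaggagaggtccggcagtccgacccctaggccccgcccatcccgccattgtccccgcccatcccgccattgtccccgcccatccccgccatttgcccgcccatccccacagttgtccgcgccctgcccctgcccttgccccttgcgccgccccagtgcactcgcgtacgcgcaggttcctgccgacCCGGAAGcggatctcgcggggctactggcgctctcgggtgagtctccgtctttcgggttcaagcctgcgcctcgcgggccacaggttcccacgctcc
ZNF813: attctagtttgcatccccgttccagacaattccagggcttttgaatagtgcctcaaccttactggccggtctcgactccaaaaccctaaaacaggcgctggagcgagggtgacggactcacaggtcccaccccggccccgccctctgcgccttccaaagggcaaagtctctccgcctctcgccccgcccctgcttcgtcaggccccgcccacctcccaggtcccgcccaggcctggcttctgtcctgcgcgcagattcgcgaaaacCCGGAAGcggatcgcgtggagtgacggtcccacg
ZNF787: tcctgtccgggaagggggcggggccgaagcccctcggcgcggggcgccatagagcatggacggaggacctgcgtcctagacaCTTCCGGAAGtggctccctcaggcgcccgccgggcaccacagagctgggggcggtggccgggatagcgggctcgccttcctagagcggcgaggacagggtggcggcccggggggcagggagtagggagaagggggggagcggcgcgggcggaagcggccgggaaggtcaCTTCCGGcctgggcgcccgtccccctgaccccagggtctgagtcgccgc

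CCGGAAG stood in the gene's sense 2 times in ZNF528 and 1 time in both ZNF677 and ZNF813. ZNF787, the gene that fell, holds 3 copies, of which 2 overlap on opposite strands. RefSeq windows were found for 207 of the 238 genes. On either strand the motif was in at least 1 window of 7 of the 8 called rises with a window. It was in windows of 15 of the 24 genes of the cluster that were not called, which makes 22 of the 32. Outside the cluster it was in windows of 75 of 175 genes. By window it was in 55.6% of those of the cluster, 73.3% of those of the cluster from ZNF101 to ZNF254, 7.69% of those from ZNF653 to ZNF791, and 10.3% of all 35116 windows of the table. The letters were chosen after searching the cluster's own windows, so the share in the cluster is a description. The cluster from ZNF101 to ZNF254, with a share of 73.3%, had no edgeR call (1 gene higher at an unadjusted p under 0.05; 0 by DESeq2 and 0 by limma-voom).

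Other elements were searched on both strands, and none of the letter strings contains another. The CCAAT box (CCAAT) was in windows of 10 of the 32 genes of the ZNF175 to ZNF331 cluster, of 29 of 29 genes from ZNF101 to ZNF254 and of 23 of 24 from ZNF653 to ZNF791. By window the shares were 28.9%, 96.7% and 88.5%, beside 34.6% of all windows. The GC box (GGGCGG) was in windows of 26 of the 32 genes, which is 66.7% of their windows beside 45.0% of all windows. The cyclic AMP response element (TGACGTCA) was in none of the 32, and in 1.85% of all windows. Aligned in pairs, the windows of the 8 called rises had 51.7% to 81.7% of their bases in common (median 61.1% over 28 pairs). Over the 496 pairs of the whole cluster, these 28 included, the share was 47.7% to 87.0% (median 55.3%). Windows of unrelated genes were not aligned for comparison. The most alike pair of the cluster, ZNF808 and ZNF611, holds no called gene.

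ZNF787 (ENSG00000142409) was the only numbered zinc finger gene of the chromosome called lower by edgeR, and had the smallest p of the 208. Its protein has 7 fingers and no KRAB box was found. It was at 69.0 CPM in vector A, 77.0 in vector B, 48.6 in overexpression A and 44.1 in overexpression B, on 2924, 2427, 1609 and 1485 reads. Both overexpression libraries were well below both vector libraries. It fell 1.57-fold (log2 fold change -0.66, SE 0.12, edgeR adjusted p = 0.00184) and passed in all 13 refits, most narrowly with a correction for GC content (log2 fold change -0.49, adjusted p = 0.0382). At 19.9 CPM per kilobase it had the highest level of the distal long arm in vector. None of the other tested genes of its cluster, up to ZNF446, was called by edgeR, DESeq2 or limma-voom, and 1 was higher at an unadjusted p under 0.05. The cluster's median log2 fold change was 0.03.

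Just before ZNF787 lies a cluster of 7 genes from ZNF628 to ZNF581, none with a KRAB box found. All 7 were tested and had log2 fold changes below 0, from -0.52 to -0.20 with a median of -0.34. For 6 the groups did not overlap, in the lower direction, where the share over all genes was 27.2%. None was called by edgeR, DESeq2 called 0 and limma-voom 1. At an unadjusted edgeR p under 0.05, 5 were lower, beside 12.3% over all genes. Summed, they were at 169 and 164 CPM in vector and at 140 and 119 CPM with overexpression. The overexpression libraries were lower and further apart than the vector libraries. ZNF628 was at 18.3 and 19.3 CPM in vector and at 14.7 and 11.5 CPM with overexpression (log2 fold change -0.52, edgeR adjusted p = 0.0507), and passed in 7 of 13 refits. ZNF579 was at 45.4 and 46.7 against 40.5 and 32.3 CPM (-0.34, adjusted p = 0.125). These genes are GC-rich, with a median of 64.9% in the longest transcript, and with the GC correction the median log2 fold change of the 7 was -0.21.

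**Figure D4:**
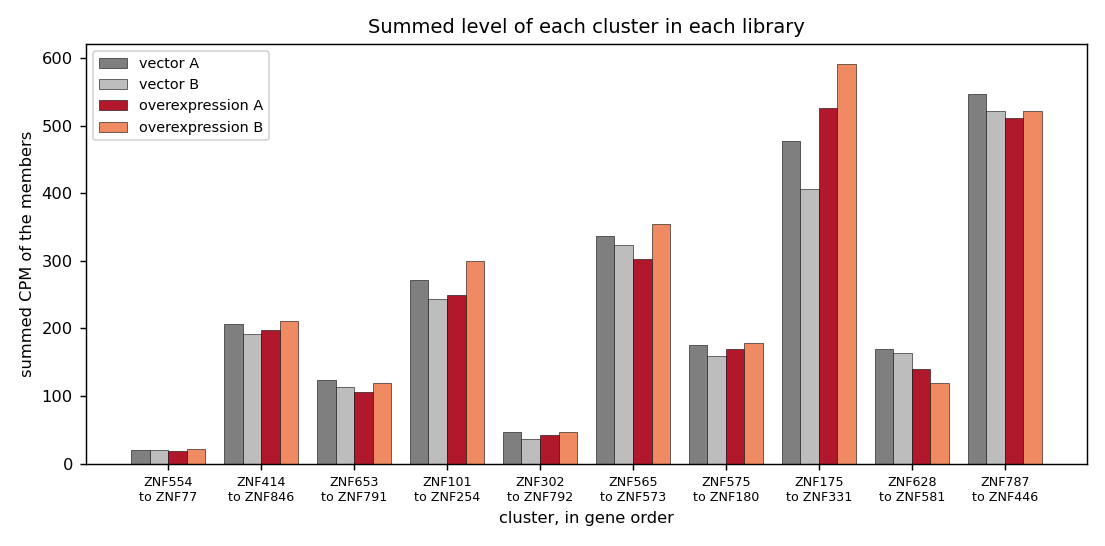
Summed CPM of the genes of each cluster in each of the 4 libraries, in gene order, with 1 bar per library. The cluster from ZNF175 to ZNF331 is higher in both overexpression libraries (526 and 591 against 477 and 406 CPM), that from ZNF628 to ZNF581 is lower in both (140 and 119 against 169 and 164 CPM), and for most others the libraries of the groups overlap.

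On the short arm no gene was called by edgeR, DESeq2 or limma-voom. At an unadjusted edgeR p under 0.05, 3 of 63 were higher and none lower (14.5% and 12.3% over all genes). The median log2 fold change was 0.03, and ran from -0.07 without overexpression B to 0.12 without overexpression A. ZNF563 had the largest value (log2 fold change 0.92, SE 0.30, edgeR adjusted p = 0.0541), at 1.25 and 1.36 CPM in vector and 2.90 and 2.05 CPM with overexpression. The groups did not overlap, on 43 to 96 reads a library, and it passed in 3 of 13 refits. The genes of the cluster from ZNF101 to ZNF254 include the silencers of young retroelements. ZNF91, which binds SVA elements, was at 22.9, 19.1, 19.4 and 24.5 CPM in vector A, vector B, overexpression A and overexpression B (log2 fold change 0.06, edgeR adjusted p = 0.852). ZNF93, which binds LINE-1 elements, was at 5.66 and 6.03 CPM in vector and 7.52 and 8.52 CPM with overexpression (log2 fold change 0.46, edgeR adjusted p = 0.145). ZNF563, ZNF91, ZNF93, and below ZNF540, ZNF284 and ZNF274, were chosen after their values were seen.

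On the proximal long arm no gene was called either, by any of the 3 tools. At an unadjusted edgeR p under 0.05, 4 of 54 were higher and 2 lower (14.5% and 12.3% over all genes). Calls in this arm segment did appear without vector A, a fit in which more genes were called over the whole table too. The median log2 fold change of this arm segment was 0.14, and 0.32 without vector A. The 2 largest values belonged to genes with few reads. ZNF540 had 4 and 5 reads in vector and 11 and 13 with overexpression (edgeR adjusted p = 0.113). ZNF284 had 17 and 15 reads in vector and 32 and 29 with overexpression (adjusted p = 0.100). ZNF146 was at 134 and 150 CPM in vector and 108 and 125 CPM with overexpression (log2 fold change -0.28, edgeR adjusted p = 0.152). It passed in 3 of 13 refits, among them those without vector A (adjusted p = 0.0318) and with the GC correction (0.0325). ZNF260, like it without a KRAB box found, was at 33.3 and 29.3 against 26.6 and 36.7 CPM, and ZNF428 at 40.6 and 38.4 against 34.2 and 29.8 CPM (log2 fold change -0.30, adjusted p = 0.163).

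Ordered by level per kilobase of exon in vector, the 3 highest genes of the proximal long arm were ZNF146, ZNF428 (21.9 CPM per kilobase) and ZNF260 (5.26), those of the distal long arm ZNF787, ZNF579 (13.9) and ZNF581 (11.5), and those of the short arm ZNF358 (8.84), ZNF317 (7.37) and ZNF414 (4.90). Of these 9 genes only ZNF317 has a KRAB box by the letters searched. The median was 1.38 CPM per kilobase for the 176 tested genes with a KRAB box and 3.91 for the 32 without. The called rises ran from 0.212 CPM per kilobase for ZNF665 to 4.66 for ZNF320, on either side of the median of 1.49 over all 208 tested genes.

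Genes with and without a KRAB box differed in the sign of their median. It was 0.13 on the log2 scale for the 176 with the box, of which 9 rose (5.11%, beside 7.80% over all genes) and none fell. It was -0.16 for the 32 without, of which 1 fell (3.12%, beside 6.67% over all genes) and none rose. At an unadjusted edgeR p under 0.05, 21 of those with the box were higher and 0 lower. Of those without, 0 were higher and 8 lower, where 14.5% of all genes were higher and 12.3% lower. Of the 21, 13 lay in the cluster from ZNF175 to ZNF331, as did all 9 called rises, and all its genes have the box. Of the 8, 5 lay in the cluster from ZNF628 to ZNF581, where no box was found. Place along the chromosome and the box thus went together in part, and were not separated here. DESeq2 called 6 and 1 and limma-voom 8 and 2 in the groups with and without the box. Summed, the 203 genes with the box were at 1782 and 1579 CPM in vector and at 1770 and 1964 CPM with overexpression, and the groups overlapped. The 35 without the box were at 734 and 744 CPM in vector and at 628 and 634 CPM with overexpression. Here the groups were apart, at a ratio of 0.854 (exact permutation test, two-sided, p = 0.33, the smallest possible).

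GC content moved with this difference. The median GC content of the longest transcript was 41.7% in tested genes with the box and 58.7% in those without. Across the 208 genes, which share these 4 libraries, GC content and log2 fold change had a Pearson r of -0.42 and a Spearman rho of -0.34. Across 12234 other coding genes the r was -0.13 (rho -0.20). With a GC offset in the fit the r over the 208 was -0.22, the medians with and without the box were 0.07 and -0.14, and 5 zinc finger genes were called higher (8.13% over all genes) and 2 lower (6.62%). In the cluster from ZNF175 to ZNF331 the median was then 0.13, and 0.19 without the offset. Other coding genes with a GC content between the quartiles of that cluster, 40.1% and 42.4%, numbered 1245. Their median was -0.01 with the offset and 0.05 without. In the fit without the offset 123 of them were called higher and 67 lower (15.3% called, beside 14.5% over all genes). Between 41.2% and 64.8%, the GC quartiles of the tested genes without the box, lay 9122 other coding genes. Without the offset their median was -0.02 with 47.0% above 0, beside -0.16 and 28.1% for the genes without the box. The range is wide and the match loose, since the median GC content of the 9122 was 51.7%, beside 58.7% for the genes without the box. The part of GC content in the KRAB difference was not tested further. The number of fingers and the log2 fold change had an r of 0.18 (rho 0.15).

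**Figure D5:**
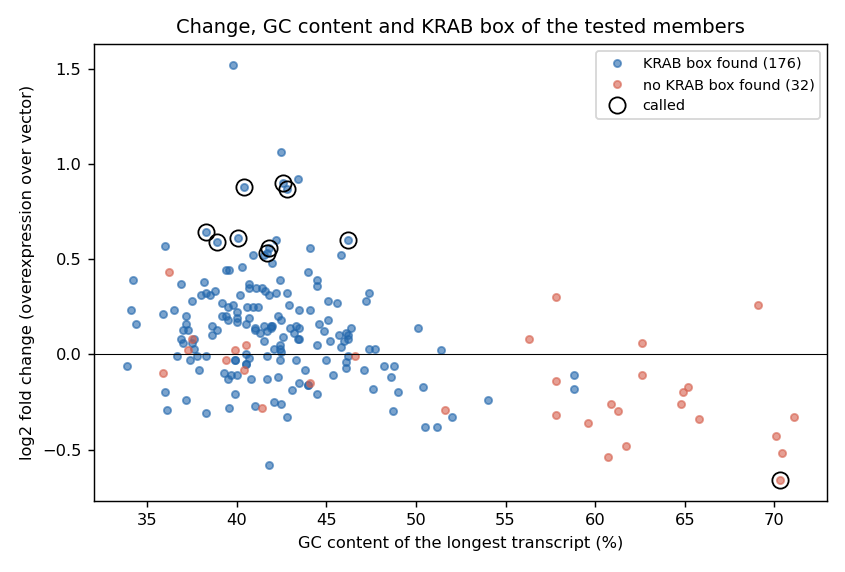
Log2 fold change (overexpression over vector) against the GC content of the longest transcript for the 208 tested zinc finger genes, 176 with a KRAB box found (blue) and 32 without (red), with called genes circled. The 9 called rises lie at low GC content among genes with the box, and ZNF787 lies at 70.3%.

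The genes of the proteins through which KRAB zinc finger proteins act were looked at as well, in RNA alone. Of 31 KRAB co-repressor genes, all tested, 2 fell and none rose, which is 6.45% beside 14.5% over all genes (UHRF1 was not analysed here). At an unadjusted edgeR p under 0.05, 4 were lower and 1 higher (12.3% and 14.5% over all genes), and DESeq2 and limma-voom called 2 each. More were called without vector A, a fit in which more genes were called over the whole table too, and fewer without any other library. MTA2, a subunit of the NuRD deacetylase complex, was at 158 and 187 CPM in vector and at 122 and 127 CPM with overexpression. The overexpression libraries lay close together and below the vector libraries (log2 fold change -0.47, SE 0.12, edgeR adjusted p = 0.0172). TRIM28, itself a gene of chromosome 19, was at 460 and 522 CPM in vector and at 401 and 381 CPM with overexpression (log2 fold change -0.33, SE 0.12, edgeR adjusted p = 0.0810). It passed in 3 of 13 refits, among them those without vector A (adjusted p = 0.00386) and with no filter on low counts (0.0391). SETDB1 was at 37.8 and 31.4 against 35.0 and 35.1 CPM (log2 fold change 0.02, adjusted p = 0.958). In bulk RNA, fewer cells that express a gene and less RNA per cell cannot be told apart.

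Of 18 tested zinc finger genes of chromosome 19 that carry other names, 1 was called (5.56%, beside 14.5% over all genes). ZSCAN1, a SCAN-domain gene, had 4 and 12 reads in vector and 36 and 21 with overexpression (log2 fold change 1.92, SE 0.56, edgeR adjusted p = 0.0306), and DESeq2 did not call it. ZNF274, which binds the coding ends of other zinc finger genes and brings SETDB1 to them, was at 39.1, 32.5, 36.5 and 36.3 CPM in vector A, vector B, overexpression A and overexpression B (log2 fold change 0.02, adjusted p = 0.939). The imprinted gene PEG3 was at 34.1 and 34.4 CPM in vector and 39.1 and 43.4 CPM with overexpression (log2 fold change 0.27, adjusted p = 0.209). Its neighbour ZNF264 had a log2 fold change of 0.03.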

How the data were processed

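RNA of 2 vector and 2 EGFR-AS1 overexpression libraries was analysed. Raw counts of reads for each Ensembl gene identifier, in whole numbers, were deposited. Strand-specific libraries were made, per the labels' protocols, and STAR, HTSeq, DESeq2 and build hg19 are named, per the submitters' processing notes. No source used here gives their versions, the annotation or whether the counting used strand.

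The quasi-likelihood test of edgeR 4.0.16 (R 4.3.3) was fitted to the whole table with TMM factors, the filterByExpr filter (minimum count 10) and the group as the only term, with Benjamini-Hochberg adjustment of its p-values. The standard errors (SE) were derived from this test, as the absolute log2 fold change divided by the square root of the F statistic. DESeq2 1.42.0 and limma 3.58.1 (voom) were alternatives, beside other factors, filters, fold thresholds, a GC offset and each library left out, 13 refits in all. Simulated data were used to test the edgeR step. It called 21 of 67 planted changes of 1.5-fold, 42 of 67 of 2-fold and 64 of 66 of 4-fold, with 11 false calls among 16106 genes. Most planted changes of 1.5-fold were thus missed, so a gene not called here may still have changed by that much. Chromosome, order, exon overlap, GC content, fingers and KRAB boxes came from GENCODE 29, which belongs to GRCh38, so none of its coordinates is printed. No protein table was given, so fingers and boxes were read from translated GENCODE coding sequences, and the letters for the box were widened after looking at those sequences. Motifs were searched in RefSeq windows of 250 bases before to 50 after a start.

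The members and lists were chosen with earlier results of these data known. Genes named by rule were EGFR-AS1, up to 5 called rises and 5 falls per arm segment with at least 1 CPM and groups that do not overlap, the 3 smallest p, the 3 highest levels per length of each arm segment, cluster ends, called co-repressors (1 of which is not reported here) with TRIM28 and SETDB1, and called other zinc finger genes. The remaining genes were named after their values were seen.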

Additional observations from a re-analysis of the deposited data

How the results depend on the processing

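Of the 9 rises, 4 were called with library totals and no factors, 3 against a fold change of 1.2 and 5 with the GC offset. Over all genes 7.52%, 4.97% and 8.13% were called higher under these 3 settings, beside 7.80% in the report. None of the 9 was called under a further size condition, a log2 change of 1 or more. Of all genes 5.59% both passed the edgeR test and met this condition, in either direction. Falls numbered 1 in the report. They were 2 with limma-voom, RLE factors, the 1 CPM filter or the GC offset, 3 without a filter, and 0 under that size condition. Of all genes 6.54%, 6.74%, 7.94% and 6.62% fell in the first 4 of these, and 5.15% without a filter. Of the cluster from ZNF175 to ZNF331, with 9 called, 4, 3, 5 and 0 were called under these 4 settings in the order given for rises. For the distal long arm, with 10, the counts were 5, 4, 6 and 0. The short arm had 1 call without a filter (10.8% over all genes), and the proximal long arm 1 with the GC offset (14.8% over all genes). Without members whose exons overlap another gene, 7 rises and 1 fall were called.

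Leaving out each library in turn gave 1 to 27 rises, 1 to 4 falls, 0 to 2 calls on the short arm, 0 to 11 on the proximal and 2 to 17 on the distal long arm, and 1 to 13 in the cluster. The median log2 fold change was then -0.07 to 0.12 on the short arm, 0.06 to 0.32 on the proximal and 0.01 to 0.16 on the distal long arm, and 0.12 to 0.36 in the cluster. Over all members it was 0.00 to 0.16. Over all genes 1271 to 3522 were called, of the ZNF genes of other chromosomes 16 to 44, and of the co-repressors 1 to 6. In each of these fits the library left alone in its group is assumed to vary like the other group.

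The letters A and B are shared by the groups, but nothing says that they mark a shared culture or day, and the deviations of same-lettered libraries correlated at 0.168 across genes. With the letter as a replicate block, 13 rises and 6 falls were called, 17 on the distal long arm, 1 on the short arm, 1 on the proximal long arm and 4 co-repressors, where 11.7% of all genes rose and 9.82% fell. TRIM28 (log2 fold change -0.33, adjusted p = 0.0206) and ZNF146 (-0.29, 0.0325) passed in that fit. Against a fold change of 1.2, 1412 genes, 19 ZNF genes of other chromosomes and 1 co-repressor were called. In the edgeR fit of the report, with a log2 change of 1 or more also required, the numbers were 901, 6 and 0.

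Values near 0 changed sign. Over the fits without 1 library, ZNF414 ran from -0.14 without vector B to 0.30, ZNF260 from -0.23 to 0.22 and SETDB1 from -0.11 to 0.15. ZNF260 was -0.00 with limma-voom or without a filter, -0.09 with the GC offset, -0.07 without vector B and -0.23 without overexpression B. SETDB1 was -0.00 without a filter and -0.11 without vector B. The causes of these changes were not tested. Few reads limit genes such as ZNF665, and shared sequence limits ZNF320.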
